A study of Mus musculus with 12 samples.

Results

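The left ventricles of Alox5 knockout mice after TAC (Alox5ko_TAC) were compared with those of wild-type mice of the group labelled NS (WT_NS), 3 libraries each of the 12 in the study. TAC is transverse aortic constriction, a narrowing of the aorta that loads the left ventricle with pressure. The labels give the genotypes as Alox5ko and WT and the treatments as TAC and NS, and they do not spell out NS. The other 2 groups, WT_TAC and Alox5ko_NS, carry 1 of the changes each and are used for values set beside the comparison. Genotype and treatment differ together between Alox5ko_TAC and WT_NS, so their parts in any difference cannot be told apart within this comparison. The design text of the series calls the knockout mice deficient in cardiac Alox5; the labels of the samples name the genotype alone. The promoter or Cre line, the strain, the age and sex of the mice and the time after surgery are not given in the sources used here. Nothing in the labels ties a library to its own animal, so p-values measure the spread between these libraries. Genes with 10 or more counts in at least 3 of the 6 libraries were tested, which kept 15095 of the 49492 rows of the count table. The comparison asks how far the overloaded knockout ventricle lay from the WT_NS state, gene by gene.

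Pressure overload makes heart muscle cells grow and turn on genes of the fetal heart and of mechanical stress, such as those of natriuretic peptides, skeletal actin and Z-disc proteins. It also activates fibroblasts, which deposit matrix, and it often lowers genes of fatty acid oxidation and of some ion channels. Alox5 encodes arachidonate 5-lipoxygenase, which turns arachidonic acid into the precursor of leukotrienes and is best known in white blood cells. Runx2, named in the series title, is a transcription factor best known from bone.

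Alox5 was low in all 3 Alox5ko_TAC libraries. Its level was 1.36, 1.14 and 1.10 CPM in Alox5ko_TAC, against 13, 10.5 and 13.9 CPM in WT_NS, where CPM is each count relative to the library total scaled with the TMM factor. The groups lay far apart, and Alox5 fell by 3.37 on the log2 scale (SE 0.189, adjusted p = 4.3e-09 by edgeR's quasi-likelihood test with Benjamini-Hochberg adjustment over all genes tested). Every adjusted p below uses this test unless another tool is named. Totals were 21185989 to 23820523 counts in Alox5ko_TAC and 21328937 to 22372490 in WT_NS, and mitochondrially encoded genes took 14.11% to 16.17% of them in Alox5ko_TAC and 15.93% to 17.54% in WT_NS. None of the 12 tested cardiomyocyte markers was called by edgeR, DESeq2 or voom, and none had an unadjusted p under 0.05. Their summed level was 189598 to 200312 CPM in Alox5ko_TAC and 183486 to 195660 CPM in WT_NS, while 8 markers of lung and airway epithelium summed to at most 0.378 CPM in any of the 6 libraries.

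Of the libraries, Alox5ko_TAC 2 stood apart in genes of myocyte stress. The 32 genes of that list summed to 28693, 18132 and 27157 CPM in Alox5ko_TAC 1, 2 and 3, against 12980, 16567 and 13545 CPM in WT_NS. Alox5ko_TAC 3 stood apart in 8 genes of hepatocytes, a list chosen after values of these data were seen. It summed to 25, 40.1 and 112 CPM in Alox5ko_TAC 1, 2 and 3, against 17.3, 19.3 and 19.8 CPM in WT_NS. The most abundant of these, Alb (serum albumin), had 267, 390 and 1080 counts in Alox5ko_TAC and 162, 193 and 213 counts in WT_NS. Because each library mixes all cells of the tissue, fewer cells of a type and less RNA per cell cannot be told apart in any result below.

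Against WT_NS, 130 of the 15095 genes passed an adjusted p under 0.05 in Alox5ko_TAC, which is 0.861% of the genes tested. Of these, 86 rose (0.570%) and 44 fell (0.291%), and 38 differed by at least 2-fold, 28 of them higher and 10 lower. With library totals alone in place of the TMM factors the split was 66 higher and 63 lower of 129 called, and the median of all genes moved to -0.05 against -0.01. Called genes had a median absolute log2 fold change of 0.68, while all genes tested had 0.13. The genes that rose took 2.28%, 1.86% and 2.17% of all counts in Alox5ko_TAC, against 1.37%, 1.53% and 1.42% in WT_NS. Those that fell took 0.0793%, 0.0893% and 0.0835% in Alox5ko_TAC, against 0.123%, 0.119% and 0.126% in WT_NS. The libraries of the groups did not overlap for any of the 130 genes, and this was so for 2559 of all genes tested (17.0%).

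The number of genes called shifted when a single library was left out, which also makes its group smaller. The parts of the library itself and of the smaller group in a lost call were not tested. The count was 277 without Alox5ko_TAC 2, 44 without Alox5ko_TAC 3 and 83 without Alox5ko_TAC 1. It was 41 without WT_NS 1, 46 without WT_NS 3 and 129 without WT_NS 2. Among the 130 genes, 30 were called in each of these 6 fits and 4 in none of them. DESeq2 called all 130 and voom called 95 of them. Fitted on the 6 libraries alone, 15 of the calls named in the text were lost, those of Adra1b, Ambp, Ccdc136, Celsr3, Clu, Cpxm2, Cryab, Des, Gal3st3, Gm26843, Gnao1, Hopxos, Ide, Vegfa and Xirp2, at adjusted p up to 0.229. The same fit gained 6 calls among genes named below as not passing. These were C4b, Cenpf, Insig1, Nr1d2, Pla2g5 and Rgs2, at adjusted p from 0.000824 to 0.0418. With library totals alone 7 were lost, those of Ambp, Clu, Cryab, Mid1, Nnt, Tgm2 and Vegfa, at adjusted p up to 0.0975, and 3 were gained, those of Ltbp1, Nr1d2 and Pla2g5. For the gene lists below, the shares over all genes tested are 0.861% called, 0.570% called higher, 0.291% called lower and 48.2% with a positive value. An unadjusted p under 0.05 was held by 1754 of all genes tested (11.6%), the share to set beside such counts in the lists.

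Most genes lay within 2-fold of the WT_NS level. For 13042 genes, 86.4% of those tested, the 95% interval of the fold change lay wholly within 1 log2 unit of 0, and for 8302 genes (55.0%) it lay within 0.5. These intervals are per gene and not adjusted for their number. Of the called genes, 25 had an interval wholly beyond 2-fold. Another 1993 genes were neither called nor held within 1 log2 unit, so a 2-fold difference was not excluded for them at this depth and spread. The median half-width of the interval was 0.31 log2 units, 0.71 among genes under a log2 CPM of 1 and 0.18 among genes over 5. An absolute log2 fold change of at least 1 was reached by 227 genes, of which 189 were not called.

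**Figure D1:**
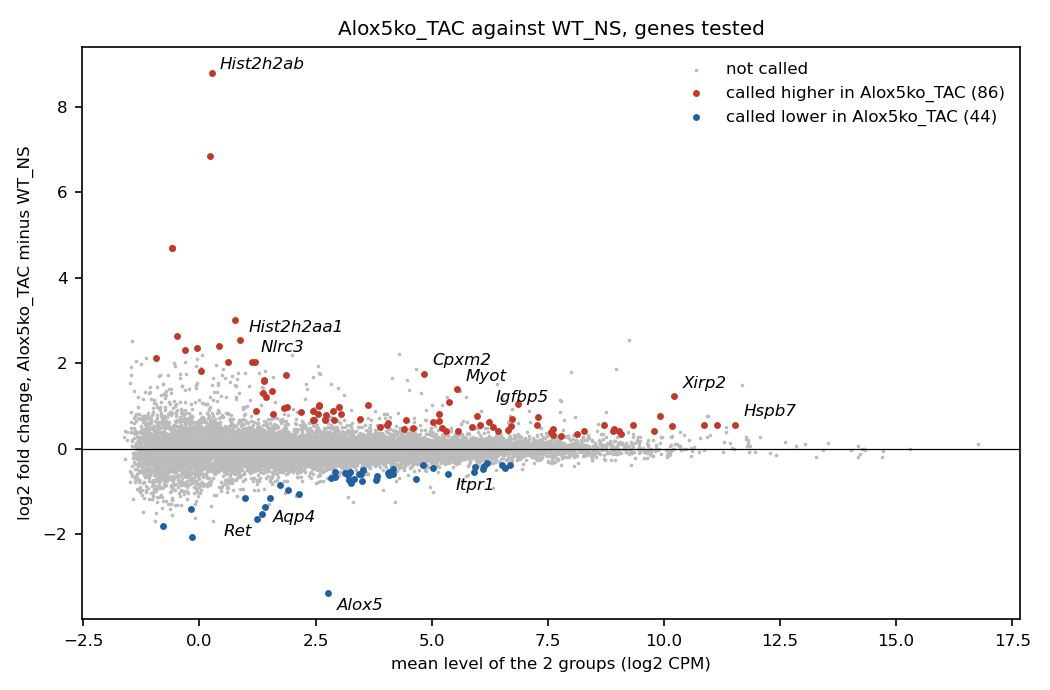
Log2 fold change of Alox5ko_TAC minus WT_NS for the genes tested, against the mean level of the groups in log2 CPM, with 86 genes called higher in red and 44 called lower in blue. Most points lie within 1 log2 unit of 0, Alox5 is the lowest called gene at -3.37, and the points above 4 are gene models of the Hist2 cluster, whose fitted values depend on the prior count.

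Measured over all genes tested, the groups lay only a little farther apart than libraries of 1 group. The root mean square difference in log2 CPM averaged 0.428 over the 9 pairs of an Alox5ko_TAC and a WT_NS library (range 0.403 to 0.462). It averaged 0.401 between the Alox5ko_TAC libraries (0.385 to 0.409) and 0.353 between the WT_NS libraries (0.345 to 0.360). Alox5ko_TAC 2 lay 0.403 to 0.408 from the WT_NS libraries, and 0.408 and 0.409 from Alox5ko_TAC 1 and 3. Libraries of WT_TAC lay 0.413 from WT_NS on average, and libraries of Alox5ko_NS lay 0.380 from it. These distances are descriptions without a test.

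The differences with the smallest adjusted p-values, next to Alox5, included replication-dependent H2A histone genes of the Hist2 cluster on chromosome 3, which encode core histones made when DNA is copied. Hist2h2ab, which encodes an H2A histone, had 56, 47 and 56 counts in Alox5ko_TAC and 0, 0 and 0 counts in WT_NS. Set against a floor of 3 counts per WT_NS library, its mean of 2.39 CPM by library total was at least 17.0-fold higher (adjusted p = 1.08e-06). Hist2h2ac had 31, 28 and 27 counts in Alox5ko_TAC and 0, 3 and 0 counts in WT_NS, a ratio of 28.3 per library total with a 95% interval of 9.37 to 140 for counting error only (adjusted p = 0.00121). Hist2h2aa1 had 65, 67 and 76 counts in Alox5ko_TAC, against 9, 19 and 8 counts in WT_NS, and rose by 2.55 (SE 0.293, adjusted p = 0.000144). All 3 genes stayed called without any 1 of the 6 libraries. Hist2h2ab and Hist2h2ac passed the filter through Alox5ko_TAC alone, so they could be tested only because they were high there. Their calls and adjusted p-values describe that rise and are not separate support for it. In the other groups Hist2h2ab had 1, 1 and 1 counts in WT_TAC and 2, 2 and 3 counts in Alox5ko_NS, so its high counts stood in the 3 Alox5ko_TAC libraries among the 12. Its adjusted p was 4.71e-06 for Alox5ko_TAC against WT_TAC and 7.68e-06 for Alox5ko_TAC against Alox5ko_NS. Its neighbours Hist2h2be and Hist2h2aa2 were not called: Hist2h2be, an H2B gene, had 63, 41 and 40 counts in Alox5ko_TAC, against 51, 52 and 76 counts in WT_NS. Hist2h2aa2 had 1458, 1461 and 1117 counts in Alox5ko_TAC, against 1206, 1315 and 1069 counts in WT_NS, and it is a near-identical copy of Hist2h2aa1, so the counting could split reads between them. Of the 24 replication-dependent histone genes listed, 11 were tested, with 3 called higher, none lower and a median of 0.19, also with Hist2h2ab at its bound. The libraries were made from polyadenylated RNA, and replication-dependent histone messages usually lack a poly(A) tail, so these counts cover only what the poly(A) selection kept.

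The promoters of these 3 genes, which moved together, are shown with those of Cpxm2 and Tgfb2, which are described below. Cpxm2 rose by 1.76 and Tgfb2 by 0.99. Some genes with larger rises than Tgfb2, such as Cnksr1 and Cdh4, are not shown. Each window runs from 250 bases before to 50 after the RefSeq start in build GRCm38.p6, 5′ to 3′ on the gene's strand. Capitals mark the TATA box letters TATAAA, the M-CAT motif CATTCC, which reads GGAATG where it lies on the other strand, and the E-box CACGTG. The windows are chr3:96219635-96219934, plus strand for Hist2h2ab, chr3:96220831-96221130, minus strand for Hist2h2ac, chr3:96245247-96245546, plus strand for Hist2h2aa1, chr7:132154692-132154991, minus strand for Cpxm2 and chr1:186705940-186706239, minus strand for Tgfb2. RefSeq lists the histone genes as H2ac21, H2ac20 and H2ac18. The letters TATAAA begin before the start, at base 221 of the window of Hist2h2ab, 209 of Hist2h2ac and 220 of Tgfb2. In Hist2h2aa1 they begin after the start, at base 262.
Hist2h2ab: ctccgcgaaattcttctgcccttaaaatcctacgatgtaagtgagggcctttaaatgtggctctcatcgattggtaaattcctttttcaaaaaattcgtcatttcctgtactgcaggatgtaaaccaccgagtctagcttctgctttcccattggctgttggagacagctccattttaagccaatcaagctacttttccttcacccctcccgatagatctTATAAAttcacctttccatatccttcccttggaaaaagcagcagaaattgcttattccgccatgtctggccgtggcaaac
Hist2h2ac: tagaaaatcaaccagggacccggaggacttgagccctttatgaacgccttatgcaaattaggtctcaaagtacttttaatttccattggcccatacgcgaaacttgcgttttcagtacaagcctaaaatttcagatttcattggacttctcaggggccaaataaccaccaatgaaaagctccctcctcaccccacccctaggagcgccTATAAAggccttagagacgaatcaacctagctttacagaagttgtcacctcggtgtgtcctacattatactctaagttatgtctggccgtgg
Hist2h2aa1: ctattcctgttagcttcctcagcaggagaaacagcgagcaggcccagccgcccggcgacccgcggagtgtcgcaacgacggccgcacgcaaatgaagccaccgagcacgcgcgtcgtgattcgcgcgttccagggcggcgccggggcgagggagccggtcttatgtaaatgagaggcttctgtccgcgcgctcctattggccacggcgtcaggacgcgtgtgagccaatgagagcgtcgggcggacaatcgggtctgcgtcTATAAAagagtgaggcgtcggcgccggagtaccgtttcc
Cpxm2: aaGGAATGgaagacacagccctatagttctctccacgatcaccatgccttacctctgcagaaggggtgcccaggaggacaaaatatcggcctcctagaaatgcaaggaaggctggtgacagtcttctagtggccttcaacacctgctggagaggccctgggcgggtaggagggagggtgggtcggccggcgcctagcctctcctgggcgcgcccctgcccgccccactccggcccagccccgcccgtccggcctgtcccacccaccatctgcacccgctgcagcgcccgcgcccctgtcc
Tgfb2: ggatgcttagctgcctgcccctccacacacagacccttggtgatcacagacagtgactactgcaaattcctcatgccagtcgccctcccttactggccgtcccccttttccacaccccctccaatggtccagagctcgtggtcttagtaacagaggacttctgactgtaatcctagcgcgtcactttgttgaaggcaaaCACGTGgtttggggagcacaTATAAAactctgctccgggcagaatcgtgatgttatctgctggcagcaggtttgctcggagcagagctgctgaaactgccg

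TATAAA was found in 9 of 70 windows of genes that rose (12.9%), 5 of 44 windows of genes that fell (11.4%) and 7.49% of the 13532 windows of all genes tested, on either strand. The windows of Hist2h2ab, Hist2h2ac, Hist2h2aa1 and Tgfb2 shown above are among the 9. CATTCC was found in 21.4% of windows of genes that rose, 15.9% of those that fell and 12.6% of all. The Runx core TGTGGT was found in 5.71% of windows of genes that rose, 9.09% of those that fell and 12.4% of all. GATAAG was in 7.14%, 2.27% and 5.07% of the same 3 sets of windows, CACGTG in 14.3%, 6.82% and 9.63%, and the ETS motif CCGGAAGT in 1.43%, 0% and 7.51%. The GATAAG share of genes that fell and the CCGGAAGT share of genes that rose rest on 1 window each. A match of letters is not a binding site, and these shares carry no test. Windows were found for 10580 of the 15095 genes tested (70.2%), and for 90 of the 130 called, some genes having more than 1 window.

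Gene models that overlap the Hist2 genes moved with them. Gm15444, on the strand opposite to Hist2h2ab, had 52, 46 and 56 counts in Alox5ko_TAC and 0, 0 and 1 counts in WT_NS, nearly the counts of Hist2h2ab itself. Gm44492 overlaps Hist2h2ac, and Gm20633, Gm20634 and AC125099.1 overlap Hist2h2aa1, and each was called. Gm15444 and Gm44492 also passed the filter through Alox5ko_TAC alone. The libraries were directional, but whether counting used strand is not given in the sources used here, so reads of a gene and its opposite partner cannot be told apart. In all, 24 of the 130 called genes share exon bases with another called gene, in 16 pairs of which 14 lie on opposite strands, and such models are named for their overlap after their values were seen. Outside Hist2 these are Nrap with Gm17197, Trim54 with Gm15469, Tgfb2 with Gm29491, Gnao1 with Gm26843, Hopx with Hopxos, Itpr1 with Gm44040, Mical3 with Gm43916 and Mid1 with G530011O06Rik.

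**Figure D2:**
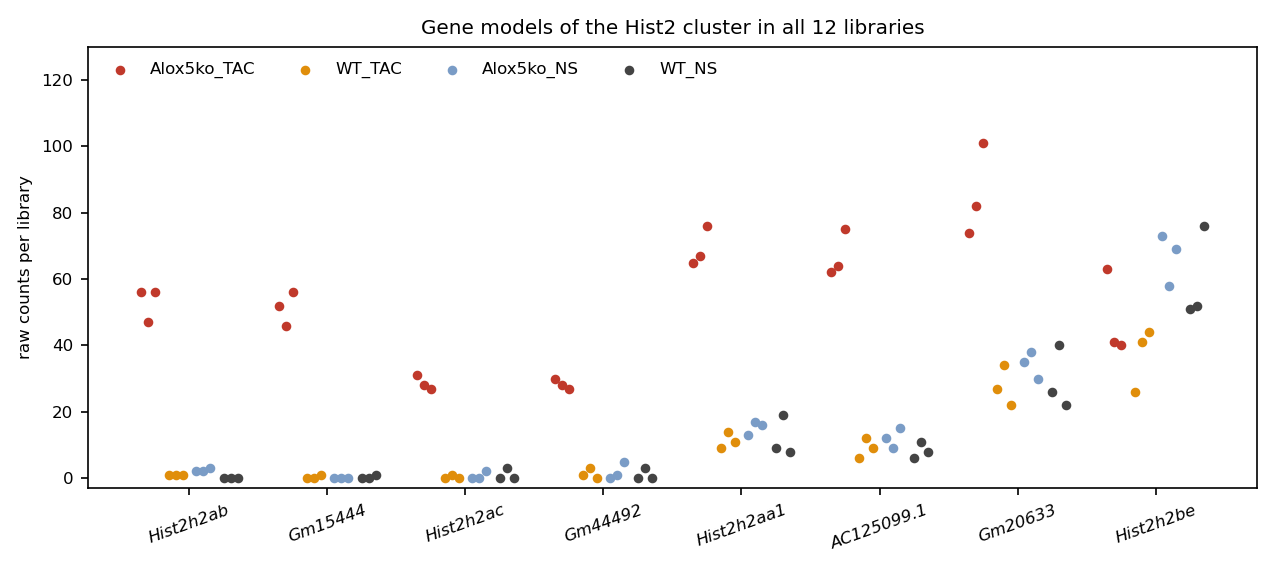
Raw counts per library of 8 gene models of the Hist2 cluster, in Alox5ko_TAC, WT_TAC, Alox5ko_NS and WT_NS. Counts of Hist2h2ab, Hist2h2ac, Hist2h2aa1 and the models that overlap them are high in the 3 Alox5ko_TAC libraries, and Hist2h2be is not.

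Outside Hist2, the largest rises among called genes over a mean log2 CPM of 1 were those of Cpxm2, Cnksr1 and Cdh4, while some genes that did not pass, such as Acta1 and Thbs4, had larger values. Cpxm2, a secreted member of the metallocarboxypeptidase family, had 47.2, 39.2 and 46.0 CPM in Alox5ko_TAC, against 14.4, 17.0 and 7.71 CPM in WT_NS. Every Alox5ko_TAC library was higher than any WT_NS library, and Cpxm2 rose by 1.76 (SE 0.232, adjusted p = 0.0068). Cnksr1, a scaffold protein of Ras signalling, had 7.16, 3.83 and 5.73 CPM in Alox5ko_TAC, against 1.27, 2.24 and 1.48 CPM in WT_NS, and rose by 1.74 (SE 0.27, adjusted p = 0.00415). Cdh4, a cadherin of cell adhesion, had 4.66, 3.83 and 3.44 CPM in Alox5ko_TAC, against 0.862, 2.16 and 0.852 CPM in WT_NS, and rose by 1.61 (SE 0.268, adjusted p = 0.00534). Itgbl1, a secreted protein related to integrin beta chains, rose by 1.02 (SE 0.163, adjusted p = 0.00501), with 14.7 to 18.8 CPM in Alox5ko_TAC and 6.46 to 10.3 CPM in WT_NS. These 4 genes kept their calls without any 1 library, and Cpxm2 lost its call in a fit of the 6 libraries alone (adjusted p = 0.0904).

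Apod, Ccdc136 and Uchl1 rose by about 2-fold. Apod, a lipid-binding apolipoprotein, rose by 1.21 (adjusted p = 0.0242), Ccdc136 by 1.0 (adjusted p = 0.0308), and Uchl1, a ubiquitin hydrolase best known from neurons, by 0.98 (adjusted p = 0.0132). Apod had 2.63, 4.65 and 4.06 CPM in Alox5ko_TAC, against 2.0, 1.64 and 1.26 CPM in WT_NS. Each of these calls was lost in some of the fits without 1 library, in which a group is smaller. In those fits the value ran from 1.03 to 1.42 for Apod and from 0.80 to 1.21 for Uchl1. Uchl1 lost its call without WT_NS 1, WT_NS 3 or Alox5ko_TAC 3, at adjusted p up to 0.0958. Apod lost it without any 1 library except Alox5ko_TAC 1, at adjusted p up to 0.161. Ccdc136 lost it without any 1 library except Alox5ko_TAC 2, at adjusted p up to 0.159.

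Genes of myocyte stress were mostly higher in Alox5ko_TAC, and few of them passed the test. Of 31 tested, 4 were called higher and none lower, 25 had a positive value, and the median was 0.55. Over all genes tested 0.861% were called, 48.2% had a positive value and the median was -0.01. Xirp2, an actin-binding protein of the intercalated disc, had 1938, 1097 and 2010 CPM in Alox5ko_TAC, against 599, 881 and 660 CPM in WT_NS. The groups did not overlap, Alox5ko_TAC 2 lay closest to WT_NS, and Xirp2 rose by 1.24 (SE 0.222, adjusted p = 0.0388). Hspb7, a small heat shock protein of heart muscle, had 4008, 2887 and 3691 CPM in Alox5ko_TAC, against 2278, 2423 and 2452 CPM in WT_NS, and rose by 0.57 (SE 0.099, adjusted p = 0.00727). Des, the muscle intermediate filament desmin, had 3164, 2077 and 2887 CPM in Alox5ko_TAC, against 1821, 1837 and 1865 CPM in WT_NS, and rose by 0.56 (SE 0.115, adjusted p = 0.0273). Cryab, alpha-B crystallin, had 1167, 858 and 988 CPM in Alox5ko_TAC, against 723, 784 and 763 CPM in WT_NS, and rose by 0.41 (SE 0.0923, adjusted p = 0.0402). In all 4 genes Alox5ko_TAC 2 was the lowest of its group. Hspb7 lost its call without WT_NS 1 or Alox5ko_TAC 3, Xirp2 without WT_NS 1, WT_NS 3, Alox5ko_TAC 1 or Alox5ko_TAC 3, and Des and Cryab without any 1 library but Alox5ko_TAC 2, at adjusted p up to 0.2. In a fit of the 6 libraries alone Hspb7 kept its call, while Xirp2 (adjusted p = 0.229), Des (adjusted p = 0.107) and Cryab (adjusted p = 0.0725) lost theirs.

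The classical markers of overload Nppa and Acta1 did not pass in edgeR. Nppa, which encodes atrial natriuretic peptide, had 839, 278 and 1238 CPM in Alox5ko_TAC, against 272, 226 and 149 CPM in WT_NS (log2 fold change 1.86, SE 0.535, adjusted p = 0.197). Acta1, skeletal alpha-actin, had 1665, 277 and 1160 CPM in Alox5ko_TAC, against 102, 312 and 117 CPM in WT_NS (2.55, SE 0.689, adjusted p = 0.176). In both, Alox5ko_TAC 2 lay at the level of WT_NS or close to it. DESeq2 called Nppa (DESeq2 adjusted p = 0.00933) and Acta1 (DESeq2 adjusted p = 0.00274). The voom fit called Acta1 (voom adjusted p = 0.0389) and not Nppa (voom adjusted p = 0.0707). DESeq2 called 13 genes of the list higher and voom 8. Without Alox5ko_TAC 2 edgeR called 13, with a median of 0.69, and without Alox5ko_TAC 3 or WT_NS 1 it called 0. The count was 1 without Alox5ko_TAC 1 or WT_NS 3, and 7 without WT_NS 2. The 8 atrial myocyte markers, which include Nppa, summed to 894, 310 and 1382 CPM in Alox5ko_TAC, against 398, 285 and 209 CPM in WT_NS, with Bmp10 at 0 in all 6 libraries. None of their 6 tested members was called by edgeR or voom, 1 was called by DESeq2, and 1 had an unadjusted p under 0.05. The 10 skeletal muscle markers, which include Acta1, summed to 3444, 1762 and 2808 CPM in Alox5ko_TAC, against 1730, 2012 and 1723 CPM in WT_NS, and the median of their 6 tested members was 0.04, with none called by edgeR, 1 called by DESeq2 and voom, and 2 at an unadjusted p under 0.05. The part of such cells in these values was not tested.

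Genes of the sarcomere, Z-disc and M-band were mostly slightly higher, and 1 passed. Of 33 tested, 28 had a positive value and the median was 0.14, with 1 called higher and none lower. The shares over all genes tested are 48.2% positive and 0.861% called. Myot, myotilin of the Z-disc (an actin-crosslinking protein), had 79.95, 52.6 and 70.6 CPM in Alox5ko_TAC, against 22.4, 29.5 and 25.1 CPM in WT_NS. Every Alox5ko_TAC library lay above every WT_NS library, Myot rose by 1.40 (SE 0.159, adjusted p = 0.001), and its call held without any 1 library. Actn2, sarcomeric alpha-actinin, had a value of 0.40 (adjusted p = 0.0843), Trim63, a muscle ubiquitin ligase, of 0.34 (adjusted p = 0.126) and Myom1, an M-band protein, of 0.33 (adjusted p = 0.142). Without Alox5ko_TAC 2, 7 members were called higher and 1 lower, against 1 or 2 higher and none lower without any other library.

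Of 46 genes of calcium cycling and ion channels, 42 did not pass, 1 was called higher and 3 lower, 15 had a positive value and the median was -0.10. Over all genes tested 0.570% were called higher, 0.291% lower and 48.2% had a positive value. Kcnc1, a voltage-gated potassium channel that is not on the list and is described further on, rose by 2.65 (adjusted p = 0.00121). Aqp4, a water channel, had 0.932, 1.37 and 1.67 CPM in Alox5ko_TAC, against 3.45, 3.54 and 4.35 CPM in WT_NS, and fell by 1.52 (SE 0.228, adjusted p = 0.00214). Aqp8, a water channel that also passes small solutes, had 5.04, 2.65 and 3.44 CPM in Alox5ko_TAC, against 0.953, 1.25 and 0.493 CPM in WT_NS, and rose by 2.04 (SE 0.328, adjusted p = 0.00489). Itpr1, an inositol trisphosphate receptor that releases calcium from internal stores, had 32.2, 33.9 and 31.5 CPM in Alox5ko_TAC, against 47.8, 47.7 and 50.2 CPM in WT_NS. Its groups were tight and far apart, and Itpr1 fell by 0.58 (SE 0.0986, adjusted p = 0.00599). Kcnd2, a potassium channel subunit of the transient outward current, fell by 0.73 (SE 0.153, adjusted p = 0.0268), with 6.48 to 7.50 CPM in Alox5ko_TAC and 9.21 to 13.7 CPM in WT_NS. Aqp4, Aqp8 and Itpr1 kept their calls without any 1 library, and Kcnd2 lost its call without WT_NS 2, WT_NS 3, Alox5ko_TAC 1 or Alox5ko_TAC 3, at adjusted p up to 0.193.

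Adrenergic and renin-angiotensin genes had a median of -0.09, with 1 of 34 called lower and none higher. Of the 34, 11 had a positive value, beside 48.2% over all genes tested. Adra1b, an alpha-1 adrenergic receptor, had 5.34, 5.93 and 4.97 CPM in Alox5ko_TAC, against 9.08, 6.90 and 10.3 CPM in WT_NS, and fell by 0.69 (SE 0.157, adjusted p = 0.0406). The call was lost without WT_NS 1, WT_NS 3, Alox5ko_TAC 1 or Alox5ko_TAC 3, at adjusted p up to 0.271. Edn3, endothelin 3, had 4.15, 1.64 and 3.35 CPM in Alox5ko_TAC, against 1.18, 1.12 and 0.359 CPM in WT_NS, and did not pass (1.78, SE 0.408, adjusted p = 0.0564). Ace, which makes angiotensin II, had a value of 0.36 (adjusted p = 0.184), and Rgs2, a brake on Gq signalling, of -0.88 (adjusted p = 0.193).

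Besides Alox5 and Aqp4, the falls included those of Ret, Celsr3, Lingo3 and Fgf16. Ret, a receptor tyrosine kinase for GDNF-family ligands, had 1.19, 1.19 and 1.05 CPM in Alox5ko_TAC, against 2.91, 3.84 and 3.95 CPM in WT_NS, and fell by 1.64 (SE 0.216, adjusted p = 0.000995). Celsr3, an atypical cadherin of planar polarity, had 2.84, 3.97 and 1.82 CPM in Alox5ko_TAC, against 6.49, 4.70 and 6.72 CPM in WT_NS, and fell by 1.05 (SE 0.217, adjusted p = 0.0252). Lingo3 fell by 0.96 (adjusted p = 0.0204), Gal3st3, a sulfotransferase, by 0.75 (adjusted p = 0.0422) and Lgr6, a receptor for R-spondins, by 0.72 (adjusted p = 0.0374). The growth factor gene Fgf16, which is expressed in heart muscle, had 2.08, 2.78 and 2.25 CPM in Alox5ko_TAC, against 4.36, 4.40 and 4.08 CPM in WT_NS, and fell by 0.85 (SE 0.19, adjusted p = 0.0374). Aldh1l2, a mitochondrial enzyme of folate metabolism, fell by 0.79 (SE 0.143, adjusted p = 0.00912), and Bhlhb9 on the X chromosome fell by 0.71 (SE 0.12, adjusted p = 0.00582). Ret kept its call without any 1 library, Bhlhb9 lost it without WT_NS 1 (adjusted p = 0.054), and Aldh1l2 lost it without WT_NS 3 or Alox5ko_TAC 1, at adjusted p up to 0.0655. Celsr3 and Lingo3 lost their calls without WT_NS 1, WT_NS 3, Alox5ko_TAC 1 or Alox5ko_TAC 3, at adjusted p up to 0.146. Fgf16 and Gal3st3 kept theirs only without Alox5ko_TAC 2, and Lgr6 only without WT_NS 2, at adjusted p up to 0.208. Schwann cell and neuron markers summed to 4.49, 4.82 and 6.09 CPM in Alox5ko_TAC, against 7.22, 6.30 and 6.99 CPM in WT_NS, with Th and Snap25 at 0 in all 6 libraries. Of these 10 markers 5 were tested, 4 of them with a negative value, and none was called by edgeR, DESeq2 or voom, with 1 at an unadjusted p under 0.05; their part in these falls was not tested.

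**Figure D3:**
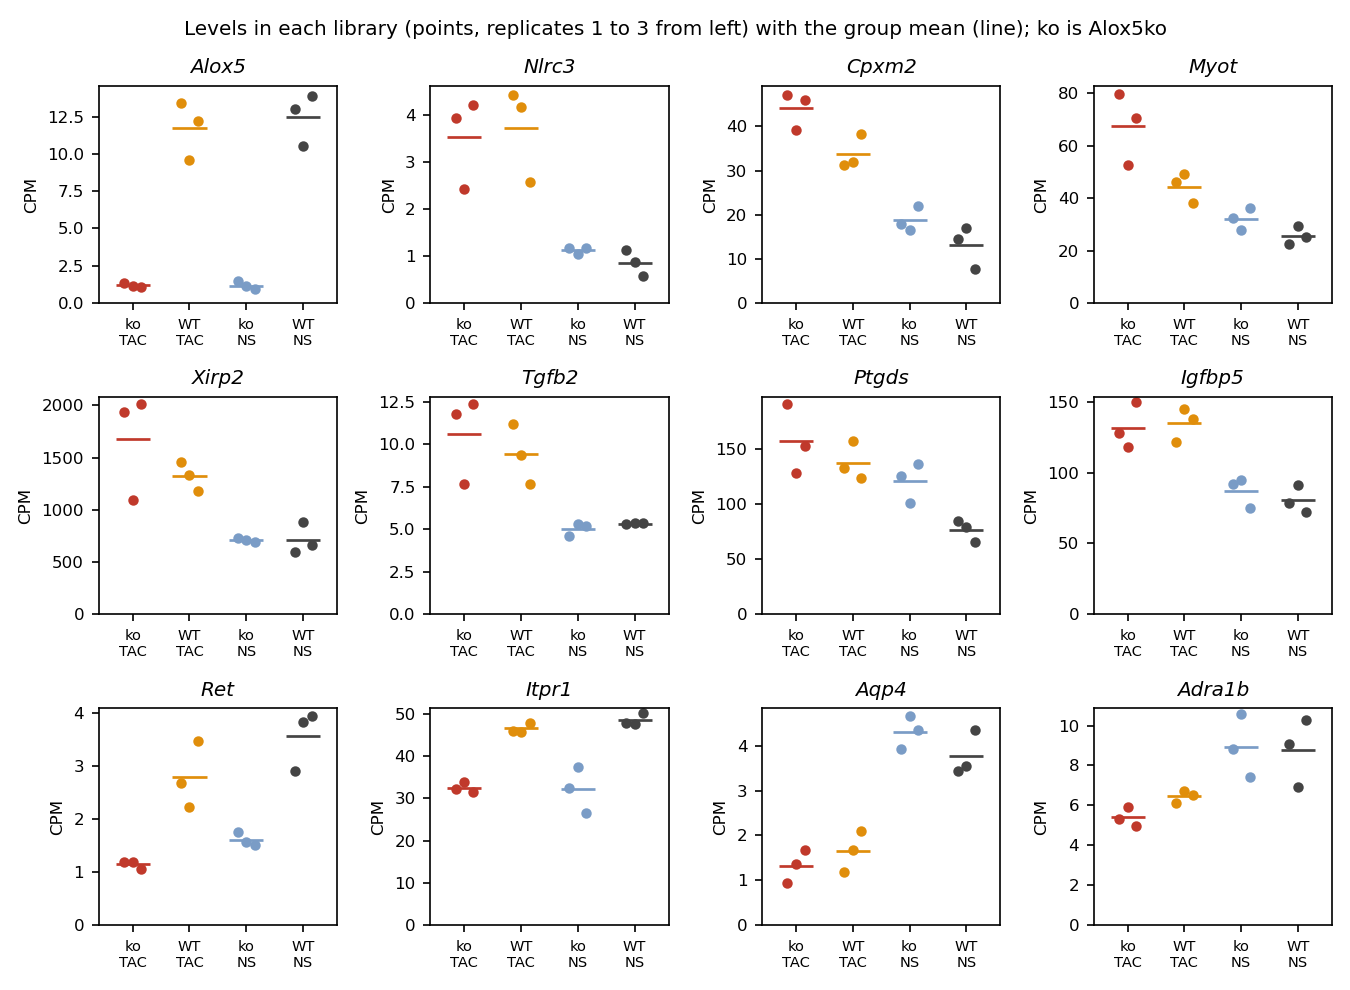
CPM in each library of 12 genes named in the text, in Alox5ko_TAC, WT_TAC, Alox5ko_NS and WT_NS from left to right, with the mean of each group as a line and axes that start at 0. Alox5, Ret and Itpr1 lie low in both knockout groups, while Nlrc3, Cpxm2, Tgfb2 and Igfbp5 lie high in both TAC groups.

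The leukotriene and lipoxygenase genes other than Alox5 did not pass. Of 26 listed, 12 were tested, with Alox5 lower, none higher and a median of -0.02. Alox12, a platelet-type lipoxygenase, had 0.975, 1.83 and 1.43 CPM in Alox5ko_TAC, against 2.72, 1.21 and 1.93 CPM in WT_NS, so the groups overlapped (-0.47, adjusted p = 0.597). Cysltr1, a receptor for cysteinyl leukotrienes, had a value of 0.78 (adjusted p = 0.446) at under 1 CPM in every library. Ephx2, the soluble epoxide hydrolase, had 112 to 123 CPM in Alox5ko_TAC and 120 to 132 CPM in WT_NS (-0.11, SE 0.0797, adjusted p = 0.656).

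In the prostanoid branch of arachidonic acid metabolism, 1 of 24 tested genes was called higher and none lower, with a median of 0.10. Ptgds, the lipocalin-type prostaglandin D synthase, had 190.5, 128 and 152 CPM in Alox5ko_TAC, against 84.0, 79.2 and 65.2 CPM in WT_NS. The libraries did not overlap, Ptgds rose by 1.04 (SE 0.159, adjusted p = 0.00948), and its call held without any 1 library. Ptger1, a prostaglandin E2 receptor, had a value of 0.31 (adjusted p = 0.0591), and Pla2g5, a secreted phospholipase A2, of -0.75 (adjusted p = 0.0628).

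Runx2 was too low to test. It had 3, 8 and 3 counts in Alox5ko_TAC, against 4, 2 and 4 counts in WT_NS, near the floor of 3 counts per library. Runx1 had 1.44, 1.41 and 2.77 CPM in Alox5ko_TAC, against 1.77, 1.55 and 1.75 CPM in WT_NS, so the groups overlapped (0.14, 95% interval -0.56 to 0.85, adjusted p = 0.925). Runx3 had a value of -0.36 (adjusted p = 0.753), Cbfb, the DNA-binding partner of Runx factors, of -0.23 (95% interval -0.43 to -0.03, adjusted p = 0.341), and the corepressor gene Runx1t1 of -0.26 (adjusted p = 0.796). Of 10 tested genes among Runx factors and textbook Runx2 targets, 1 was called higher and none lower, with a median of -0.07. That gene was Vegfa, the endothelial growth factor, with 600, 613 and 614 CPM in Alox5ko_TAC, against 444, 544 and 443 CPM in WT_NS, which rose by 0.35 (SE 0.0824, adjusted p = 0.0476) and kept its call only without WT_NS 2, with an adjusted p up to 0.287 elsewhere.

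Fitted with all libraries, no collagen or matricellular gene passed. None of 24 collagens was called by edgeR, 9 had a positive value, the median was -0.11, 2 had an unadjusted p under 0.05, DESeq2 called 2 lower and voom 1 lower. Without Alox5ko_TAC 1 edgeR called 1 collagen lower, and the collagen median ran from -0.20 without Alox5ko_TAC 3 to -0.01 without Alox5ko_TAC 2. A fit of the 6 libraries alone also called a collagen lower, at an adjusted p of 0.00252. Col6a6 had 2.63, 7.85 and 7.17 CPM in Alox5ko_TAC, against 14.8, 11.3 and 15.6 CPM in WT_NS (-1.25, SE 0.316, adjusted p = 0.132), and Col8a1, a collagen of vessels and remodelling matrix, had a value of 0.73 (adjusted p = 0.553). None of 48 matricellular and matrix glycoprotein genes was called by edgeR, with a median of 0.14. Of the 48, 12 had an unadjusted p under 0.05, beside 11.6% over all genes tested. DESeq2 called 1 higher and 1 lower and voom none. Without Alox5ko_TAC 2, and with library totals alone, edgeR called 1 of the 48 lower. Cilp, a matrix protein of activated fibroblasts, had 51.3, 17.0 and 50.8 CPM in Alox5ko_TAC, against 11.8, 12.6 and 8.25 CPM in WT_NS (1.87, SE 0.565, adjusted p = 0.225). Thbs4, thrombospondin 4, had 34.7, 7.85 and 54.7 CPM in Alox5ko_TAC, against 7.49, 9.23 and 3.90 CPM in WT_NS (2.23, SE 0.8, adjusted p = 0.306). Alox5ko_TAC 2 was again the library near WT_NS. Thbs1 had a value of -1.0 (adjusted p = 0.249), and Ltbp1, which binds latent TGF-beta, of -0.43 (adjusted p = 0.0522).

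Fibroblast markers gave 1 call of 12 tested, with a median of 0.16. Pi16, a secreted protein of resting fibroblasts, had 50.5, 68.2 and 50.6 CPM in Alox5ko_TAC, against 29.0, 26.4 and 23.5 CPM in WT_NS, and rose by 1.10 (SE 0.189, adjusted p = 0.0242). Its call was kept only without Alox5ko_TAC 1 or 2, and the adjusted p reached 0.126 elsewhere. The 10 markers of activated fibroblasts summed to 255, 126 and 306 CPM in Alox5ko_TAC, against 199, 192 and 156 CPM in WT_NS, which overlap. Of their 9 tested members none was called by edgeR, the median was 1.21 and 4 had an unadjusted p under 0.05, while DESeq2 called 1 higher and 1 lower and voom 1 lower. The median was 0.74 without Alox5ko_TAC 3 and 1.54 without Alox5ko_TAC 2, and in each of these fits edgeR called 1 member lower. Smooth muscle and pericyte markers summed to 949, 1126 and 1075 CPM in Alox5ko_TAC, against 1360, 1280 and 1339 CPM in WT_NS, with no overlap. Of these 12, none was called by edgeR, 1 had a positive value, the median was -0.28, 3 had an unadjusted p under 0.05, and DESeq2 and voom called 1 lower. Without Alox5ko_TAC 2, and without Alox5ko_TAC 3, edgeR called 1 of them lower. Acta2, smooth muscle alpha-actin, had 50.5, 39.6 and 74.0 CPM in Alox5ko_TAC, against 109, 102 and 99.3 CPM in WT_NS (-0.92, SE 0.199, adjusted p = 0.0721), and it was called in 2 of the 6 fits without 1 library. Acta2 is on the lists of both activated fibroblasts and smooth muscle. It is the gene called lower in each by DESeq2 (DESeq2 adjusted p = 1.78e-05) and voom (voom adjusted p = 0.0103), so these are not separate falls.

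Enzymes and growth factors of the matrix gave single calls. Tgm2, the tissue transglutaminase that crosslinks proteins, had 235, 209 and 206 CPM in Alox5ko_TAC, against 156, 169 and 168 CPM in WT_NS, and rose by 0.40 (SE 0.0889, adjusted p = 0.0378), the 1 call among 35 tested proteases, inhibitors and crosslinkers, whose median was 0.08. Tgfb2, a TGF-beta ligand, had 11.8, 7.67 and 12.4 CPM in Alox5ko_TAC, against 5.31, 5.35 and 5.34 CPM in WT_NS. It rose by 0.99 (SE 0.169, adjusted p = 0.00599), the 1 call among 33 tested genes of the TGF-beta, activin, GDF and BMP families, whose median was 0.06. Fstl3, a secreted inhibitor of activin, had a value of 1.03 (adjusted p = 0.14), and Inhbb, an activin subunit, of 0.59 (adjusted p = 0.172). Tgfb2 lost its call without Alox5ko_TAC 3 (adjusted p = 0.0509), and Tgm2 kept its call only without Alox5ko_TAC 2, with an adjusted p up to 0.196 elsewhere.

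**Figure D4:**
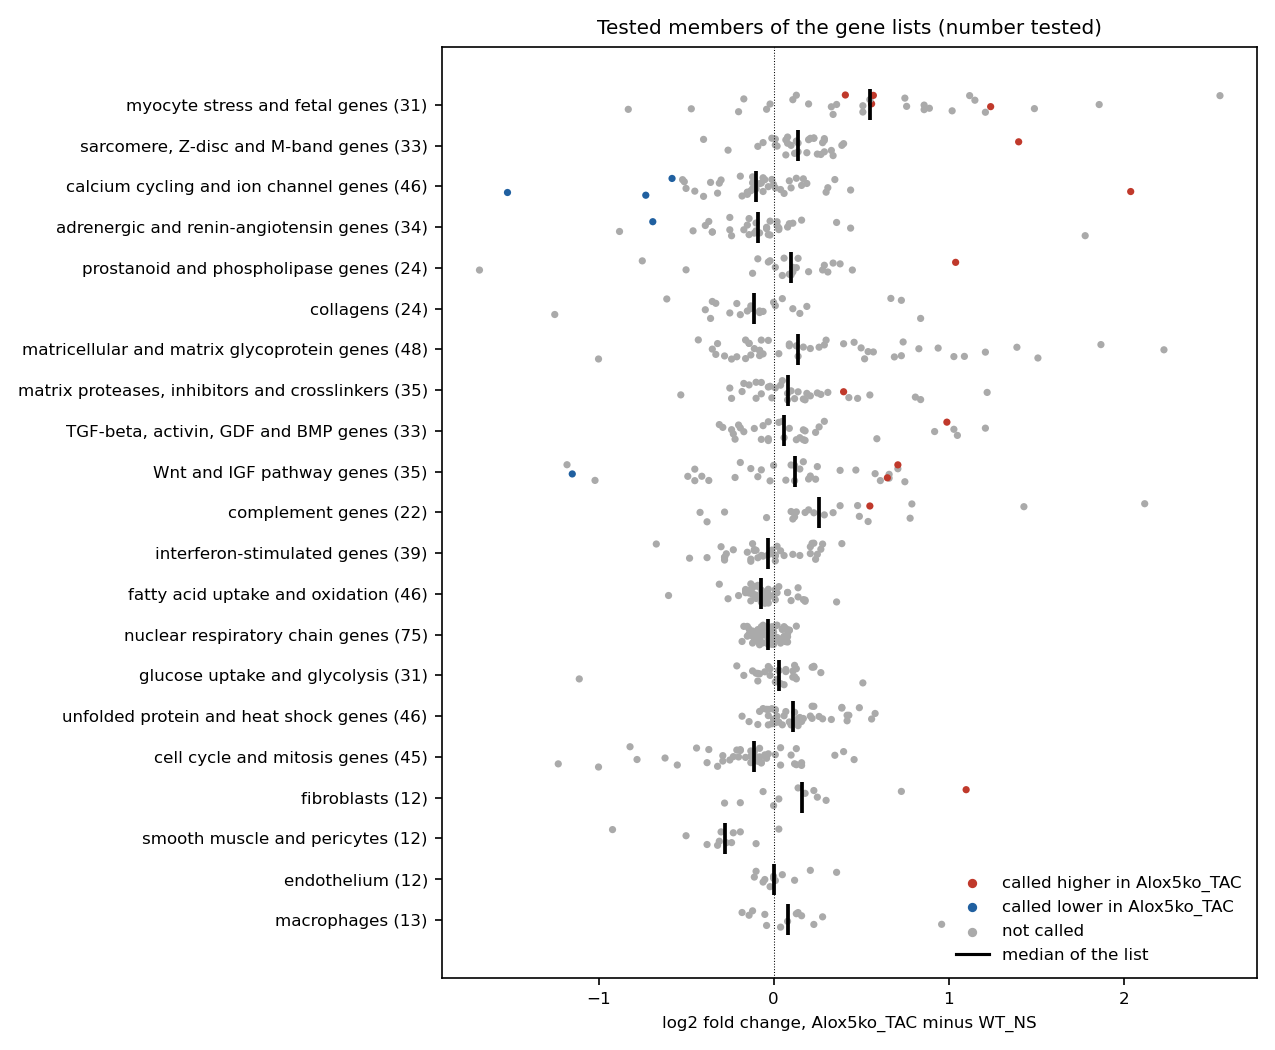
Log2 fold change of Alox5ko_TAC minus WT_NS for each tested member of 21 gene lists, with called genes in colour and the median of each list as a black bar. Myocyte stress genes have a median of 0.55, smooth muscle and pericyte markers of -0.28, and the other lists shown have medians from -0.11 to 0.26.

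Wnt and IGF pathway genes gave 3 calls of 35 tested, with a median of 0.12, beside 0.861% called over all genes tested. Igfbp5, which binds insulin-like growth factors, had 128, 118 and 149.67 CPM in Alox5ko_TAC, against 78.4, 91.2 and 72.3 CPM in WT_NS, rose by 0.71 (SE 0.111, adjusted p = 0.00415) and kept its call without any 1 library. Wnt5b, a Wnt ligand, had 2.12, 1.78 and 1.43 CPM in Alox5ko_TAC, against 3.45, 4.31 and 4.17 CPM in WT_NS, and fell by 1.15 (SE 0.202, adjusted p = 0.00727). Ide, the insulin-degrading enzyme, had 35.1, 45.9 and 49.2 CPM in Alox5ko_TAC, against 33.0, 23.6 and 26.5 CPM in WT_NS, and rose by 0.65 (SE 0.127, adjusted p = 0.022). Wnt5b lost its call without Alox5ko_TAC 3 (adjusted p = 0.0567), and Ide without WT_NS 2, WT_NS 3 or Alox5ko_TAC 3, at adjusted p up to 0.127. Dixdc1, a Wnt signal transducer, had a value of -1.02 (adjusted p = 0.137).

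Among immune genes, a regulator rose while ligands and interferon genes did not pass. Nlrc3, a NOD-like receptor family member that dampens innate immune signalling, had 3.94, 2.42 and 4.21 CPM in Alox5ko_TAC, against 1.13, 0.863 and 0.583 CPM in WT_NS. It rose by 2.03 (SE 0.282, adjusted p = 0.001), kept its call without any 1 library, and was the 1 call among 16 tested NOD-like receptor genes, whose median was 0.02. Clu, clusterin, an inhibitor of the terminal complement complex, had 493, 420 and 574 CPM in Alox5ko_TAC, against 314, 384 and 319 CPM in WT_NS, and rose by 0.55 (SE 0.121, adjusted p = 0.0419). It was the 1 call among 22 tested complement genes, whose median was 0.26 and of which 18 had a positive value, beside 0.861% called and 48.2% positive over all genes tested. The call was lost without WT_NS 1, WT_NS 3, Alox5ko_TAC 1 or Alox5ko_TAC 3, at adjusted p up to 0.222. C4b, a component of the classical pathway, had 8.01, 13.8 and 13 CPM in Alox5ko_TAC, against 4.90, 4.92 and 3.05 CPM in WT_NS, and did not pass (1.43, SE 0.294, adjusted p = 0.0522). Without Alox5ko_TAC 1, 3 complement genes were called and the median was 0.47, and none was called without WT_NS 1, WT_NS 3 or Alox5ko_TAC 3.

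None of 20 chemokine and cytokine genes was called by edgeR, DESeq2 or voom, 1 had an unadjusted p under 0.05 and the median was -0.01. That gene was Cxcl9, an interferon-induced chemokine, with 3.69, 3.33 and 3.11 CPM in Alox5ko_TAC, against 4.90, 4.88 and 6.10 CPM in WT_NS (-0.65, adjusted p = 0.136). None of 39 interferon-stimulated genes was called by edgeR or voom, DESeq2 called 1 lower, 4 had an unadjusted p under 0.05 and the median was -0.03. Macrophage markers had a median of 0.08, with none of 13 called by edgeR, DESeq2 or voom and 1 at an unadjusted p under 0.05, and they summed to 154 to 197 CPM in Alox5ko_TAC and 160 to 181 CPM in WT_NS. The 12 endothelial markers had a median of 0.0, with none called by the same 3 tools and none at an unadjusted p under 0.05. Mast cell markers summed to 2.90, 2.18 and 1.94 CPM in Alox5ko_TAC, against 3.89, 3.98 and 4.17 CPM in WT_NS, with no overlap; only 1 of 8 was tested, with an unadjusted p under 0.05 and no call by the 3 tools. Neutrophil markers summed to 2.12 to 3.8 CPM in Alox5ko_TAC and 2.54 to 8.77 CPM in WT_NS, which overlap, and the 2 tested of 10 had an unadjusted p under 0.05 and no call by the 3 tools.

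Metabolic lists had medians near 0, and no gene of respiration, fatty acid oxidation or glycolysis passed. A positive value was held by 23 of 75 nuclear respiratory chain genes and 14 of 46 genes of fatty acid uptake and oxidation. The count was 19 of 31 for glycolysis genes, beside 48.2% over all genes tested. All 75 tested nuclear respiratory chain genes lay between -0.18 and 0.13, with a median of -0.03; none was called by edgeR, DESeq2 or voom, and 2 had an unadjusted p under 0.05. Sdha, a subunit of complex II, had 990 to 1050 CPM in Alox5ko_TAC and 1120 to 1182 CPM in WT_NS (-0.18, SE 0.0735, adjusted p = 0.324). The 13 mitochondrially encoded genes lay between -0.19 and 0.18, with none called by the 3 tools and 1 at an unadjusted p under 0.05. Fatty acid uptake and oxidation genes had a median of -0.07, with none of 46 called by edgeR or voom, 1 called lower by DESeq2 and 5 at an unadjusted p under 0.05. Acot1, an acyl-CoA thioesterase, had 6.02, 5.93 and 5.11 CPM in Alox5ko_TAC, against 8.13, 7.68 and 10.0 CPM in WT_NS (-0.60, SE 0.151, adjusted p = 0.0732), and Acaa2, the mitochondrial thiolase, had a value of -0.26 (adjusted p = 0.143). Glycolysis genes had a median of 0.03, with none of 31 called by edgeR or voom, 1 called higher by DESeq2 and 3 at an unadjusted p under 0.05. Pfkp, a phosphofructokinase, had 77.8, 54.3 and 76.1 CPM in Alox5ko_TAC, against 44.9, 52.8 and 48.5 CPM in WT_NS (0.51, SE 0.125, adjusted p = 0.0695).

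Of 39 antioxidant and thiol redox genes, 1 was called higher and none lower, with a median of 0.01. Nnt, the mitochondrial transhydrogenase that makes NADPH, had 221, 239 and 223 CPM in Alox5ko_TAC, against 166, 155 and 172 CPM in WT_NS, and rose by 0.47 (SE 0.103, adjusted p = 0.0374). Its groups were tight and apart, yet the call was lost without any 1 of the 6 libraries, at adjusted p between 0.0657 and 0.151. None of 28 lipogenic genes was called by edgeR or voom, DESeq2 called 1 higher, and 4 had an unadjusted p under 0.05. Insig1, a sterol sensor, had 6.69, 6.16 and 6.45 CPM in Alox5ko_TAC, against 3.68, 4.57 and 3.95 CPM in WT_NS (0.66, SE 0.158, adjusted p = 0.0522).

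Fitted with all libraries, stress, clock and proliferation programs gave no call by edgeR. Genes of the unfolded protein response and heat shock showed a median of 0.11, with 35 of 46 positive, 7 at an unadjusted p under 0.05, 2 called higher by DESeq2 and none by voom. Bag3, a co-chaperone of muscle, had 414, 330 and 367 CPM in Alox5ko_TAC, against 277, 325 and 280 CPM in WT_NS (0.33, adjusted p = 0.108). Clock genes had a median of -0.09, with 4 of 20 at an unadjusted p under 0.05, DESeq2 calling 1 higher and 1 lower and voom none. Nfil3, a clock repressor, had a value of 0.43 (adjusted p = 0.0542), and Nr1d2, a nuclear receptor of the clock, of -0.58 (adjusted p = 0.07). Immediate early genes had a median of -0.10, with 11 of 35 positive, 2 at an unadjusted p under 0.05 and none called by DESeq2 or voom. Cell cycle and mitosis genes had a median of -0.11, with 12 of 45 positive, 7 at an unadjusted p under 0.05 and 1 called lower by each of DESeq2 and voom. Over all genes tested 48.2% were positive. Cenpf, a protein of the mitotic kinetochore, had 9.24, 12.2 and 11.6 CPM in Alox5ko_TAC, against 29.4, 18.7 and 29.3 CPM in WT_NS (-1.23, SE 0.279, adjusted p = 0.095). In a fit of the 6 libraries alone Cenpf (adjusted p = 0.0252) and Nr1d2 (adjusted p = 0.0418) were called lower.

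The share of genes called was highest near Alox5 among the regions counted. Chromosome 6, which carries Alox5 at 116410077 to 116461178 in build mm10, had 15 of 783 tested genes called (1.92%), against 0.804% on all other chromosomes. Within 10 Mb of the Alox5 start 9 of 168 were called (5.36%), Alox5 included, with 4 higher and 5 lower. The others were Itpr1, Ret and Wnt5b, which fell, Fam21, Mical3 and Gnb3, which rose, and the overlapping models Gm44040 and Gm43916. On the mm10 axis Ret starts 1.74 Mb and Wnt5b 3.02 Mb after the Alox5 start, while Itpr1 starts before it, at -8.2 Mb. Mical3, an actin-regulating monooxygenase that starts 4.52 Mb after Alox5, had 215, 185 and 189 CPM in Alox5ko_TAC, against 110.4, 119 and 122 CPM in WT_NS, and rose by 0.75 (SE 0.101, adjusted p = 0.001). Fam21 and Gnb3 rose by 0.48 (adjusted p = 0.0236) and 0.88 (adjusted p = 0.0169). Mical3 kept its call without any 1 library, Fam21 lost it without any WT_NS library or Alox5ko_TAC 3, and Gnb3 without WT_NS 1, WT_NS 3 or Alox5ko_TAC 1, at adjusted p up to 0.143. Chromosome 3, with the Hist2 models, had 13 of 761 called (1.71%). These shares are descriptions without a test, and Fam21, Mical3 and Gnb3 were named for their position after their values were seen.

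**Figure D5:**
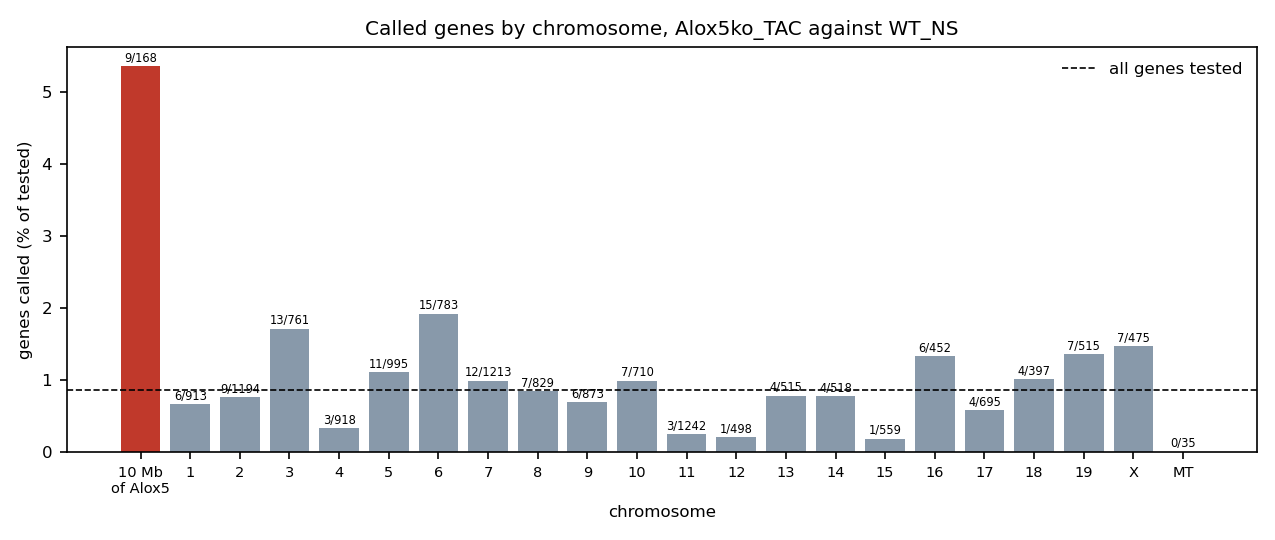
Share of tested genes called in Alox5ko_TAC against WT_NS, in percent, within 10 Mb of Alox5 and on each chromosome, with called and tested genes above each bar and the share over all genes as a dashed line at 0.861%. The window around Alox5 has 5.36% and no chromosome is over 1.92%.

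Values for the steps between the groups, from the same fit, show where the called genes differed. They share libraries with the comparison above, so they are set side by side and not counted as separate evidence. The number of genes called was 118 (0.782%) for WT_TAC against WT_NS, 6 (0.0397%) for Alox5ko_NS against WT_NS, 210 (1.39%) for Alox5ko_TAC against Alox5ko_NS and 16 (0.106%) for Alox5ko_TAC against WT_TAC. For the difference between the TAC steps of the genotypes, 0 of the 15095 genes tested were called. Hist2h2ab, at 0 to 3 counts per library outside Alox5ko_TAC, had 1.39 there (SE 2.45, adjusted p = 0.999). Nlrc3 had 2.11 in WT_TAC against WT_NS (adjusted p = 0.00322) and 0.38 in Alox5ko_NS against WT_NS (adjusted p = 0.873). Pi16 had 1.50 in WT_TAC against WT_NS (adjusted p = 0.0079) and -0.06 in Alox5ko_NS against WT_NS (adjusted p = 0.977). Aqp4 had -1.19 in WT_TAC against WT_NS (adjusted p = 0.0169) and 0.19 in Alox5ko_NS against WT_NS (adjusted p = 0.895). These 3 thus differed from WT_NS in both TAC groups and did not pass in the knockout without TAC.

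The 6 genes called in Alox5ko_NS against WT_NS were Alox5, Itpr1, Ret, Wnt5b, Nnt and Ide. Itpr1 had -0.59 in Alox5ko_NS against WT_NS (adjusted p = 0.0317) and -0.06 in WT_TAC against WT_NS (adjusted p = 0.881). Ret had -1.14 (adjusted p = 0.0493) and -0.35 (adjusted p = 0.506) in the same 2 steps, and Wnt5b had -1.13 (adjusted p = 0.0493) and 0.17 (adjusted p = 0.794). Nnt and Ide, on chromosomes 13 and 19, had 0.86 (adjusted p = 0.000848) and 0.87 (adjusted p = 0.0135) in Alox5ko_NS against WT_NS, and -0.07 (adjusted p = 0.875) and -0.17 (adjusted p = 0.681) in WT_TAC against WT_NS. For Xirp2 and Cpxm2 the WT_TAC mean lay between those of Alox5ko_TAC and WT_NS. Xirp2 averaged 1682 CPM in Alox5ko_TAC, 1327 in WT_TAC, 707 in Alox5ko_NS and 713 in WT_NS. Cpxm2 averaged 44.1 CPM in Alox5ko_TAC, 33.9 in WT_TAC, 18.7 in Alox5ko_NS and 13 in WT_NS. For Xirp2, Alox5ko_TAC against WT_TAC gave 0.34 (adjusted p = 0.74), and for Cpxm2 0.38 (adjusted p = 0.7), so these differences between the TAC groups did not pass.

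Some called genes outside the naming rule are given for their known roles, chosen after their values were seen. Nrap, a protein of the intercalated disc and myofibril assembly, had 1409, 1031 and 1229 CPM in Alox5ko_TAC, against 610, 782 and 768 CPM in WT_NS, and rose by 0.76 (SE 0.131, adjusted p = 0.0112). Trim54, a muscle ubiquitin ligase of the MuRF family, had 839, 749 and 716 CPM in Alox5ko_TAC, against 488, 556 and 504 CPM in WT_NS, and rose by 0.57 (SE 0.0791, adjusted p = 0.001). Golga4, a golgin of the trans-Golgi, had 2108, 2176 and 2366 CPM in Alox5ko_TAC, against 1429, 1550 and 1545 CPM in WT_NS, and rose by 0.56 (SE 0.0756, adjusted p = 0.001). Mef2a, a transcription factor of muscle, had 72.0, 83.0 and 85.8 CPM in Alox5ko_TAC, against 113, 108 and 109 CPM in WT_NS, and fell by 0.45 (SE 0.0922, adjusted p = 0.0226). Chrm2, the muscarinic receptor of the heart, fell by 0.53 (SE 0.104, adjusted p = 0.0191), and Hopx, a homeodomain protein of heart muscle, by 0.37 (SE 0.0735, adjusted p = 0.0202). Trim54 and Golga4 kept their calls without any 1 library, and Nrap lost its call without WT_NS 1 or Alox5ko_TAC 3, at an adjusted p of 0.054 at most. Mef2a, Chrm2 and Hopx lost theirs without WT_NS 1, WT_NS 3, Alox5ko_TAC 1 or Alox5ko_TAC 3, at adjusted p up to 0.134.

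Further called genes that kept their calls without any 1 library were also chosen after their values were seen. Kcnc1, a voltage-gated potassium channel, had 32, 25 and 25 counts in Alox5ko_TAC, against 4, 7 and 2 counts in WT_NS, and rose by 2.65 (SE 0.377, adjusted p = 0.00121). Kcnc1 passed the filter through Alox5ko_TAC alone. Ppp1r14a, an inhibitor of myosin phosphatase known from smooth muscle, had 20.1, 21.6 and 16.2 CPM in Alox5ko_TAC, against 29.3, 34.1 and 31.2 CPM in WT_NS, and fell by 0.71 (SE 0.109, adjusted p = 0.00296). It fell beside the smooth muscle and pericyte markers, which summed to 949 to 1126 CPM in Alox5ko_TAC and 1280 to 1360 CPM in WT_NS, and their part in its value was not tested. Adprhl1, a heart-enriched protein related to ADP-ribosyl hydrolases, had 1529, 1271 and 1305 CPM in Alox5ko_TAC, against 894, 1012 and 923 CPM in WT_NS, and rose by 0.54 (SE 0.0861, adjusted p = 0.00415). Mknk2, a kinase of the translation factor eIF4E, had 80.8, 69.3 and 84.2 CPM in Alox5ko_TAC, against 47.6, 56.4 and 55.4 CPM in WT_NS, and rose by 0.55 (SE 0.0898, adjusted p = 0.00415).

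Low-level genes best known from liver were also among the rises. Ambp, a plasma protein precursor, had 23, 37 and 86 counts in Alox5ko_TAC, against 12, 5 and 11 counts in WT_NS (2.41, SE 0.525, adjusted p = 0.0452). Kng1, kininogen, had 20, 33 and 53 counts in Alox5ko_TAC, against 5, 9 and 7 counts in WT_NS (2.36, SE 0.427, adjusted p = 0.00948), and Mat1a, a methionine enzyme of liver, had 17, 26 and 45 counts in Alox5ko_TAC, against 5, 6 and 7 counts in WT_NS (2.31, SE 0.472, adjusted p = 0.0236). Kng1 and Mat1a passed the filter through Alox5ko_TAC alone. In each of the 3 genes Alox5ko_TAC 3 was highest, as it was for the summed hepatocyte genes, 112 CPM there, with 25 and 40.1 CPM in Alox5ko_TAC 1 and 2. Without Alox5ko_TAC 3, WT_NS 1 or WT_NS 3 none of the 3 calls held, Ambp and Mat1a also lost theirs without WT_NS 2, and the adjusted p reached 0.2. All 8 hepatocyte genes were detected in each of the 6 libraries, and their part in these rises was not tested.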

How the data were processed

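RNA of mouse left ventricle was sequenced in 12 libraries, 3 for each of 4 groups. Per the labels' protocols, the libraries were directional, made from poly(A)-selected RNA and read in pairs. The authors deposited whole-number read counts for each gene, together with RPKM values that equal those counts per gene length and library total within 0.1%. The submitters' processing notes name HISAT2, DESeq2, GRCh38 and mm10. The annotation and the counting program are not given in the sources used here, and gene spans match mm10.

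Counts were tested with edgeR 4.0.16 in R 4.3.3 (quasi-likelihood F test, TMM factors, robust estimation, 1 coefficient for each group over all 12 libraries, 8 residual degrees of freedom before sharing across genes). Benjamini-Hochberg adjustment ran over the 15095 genes tested, and a gene was called under an adjusted p of 0.05. Gene levels are CPM with TMM factors, list sums are CPM by library total, and distances use log2 CPM with a prior count of 2. A floor of 3 counts and all ratio intervals cover counting error only. Sequences are from RefSeq.

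The genes named are Alox5 and the Runx genes; the 12 highest and 12 lowest among called genes, excluding predicted models, groups that overlap, and low genes (mean log2 CPM below 1); the 5 smallest adjusted p-values; and up to 4 of each list by adjusted p. Members and lists were chosen with earlier results of these data known. DESeq2 1.42.0 and limma 3.58.1 voom, other scalings and filters, single libraries left out and a replicate block were alternatives. On counts simulated for this comparison over 15095 genes, 61.2% of genes changed 1.5-fold and 94% of those changed 2-fold were called. Changes were put only into genes with a mean of at least 2 CPM, 67 for each of these folds. Counts were drawn independently for each gene around 1 mean per group, so shifts of a whole library across many genes were not simulated. The shares therefore cover neither lower genes nor such shifts. In the data, 189 of the 227 genes of any level with an absolute log2 fold change of at least 1 were not called. Rows whose symbol is a date, 26 in the count table, are not named.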

Additional observations from a re-analysis of the deposited data

How the results depend on the processing

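The number of genes called, 130 in Alox5ko_TAC against WT_NS, stayed within 1.5 times with voom, other size factors, library totals alone, no mitochondrially encoded genes, the group-wise filter, only the 6 libraries compared, and without robust estimation. DESeq2 called 285 (197 higher, 88 lower, 85 at 2-fold or more). Without a filter beyond 1 count, 26070 genes were tested and 399 were called (257 higher, 142 lower, 106 at 2-fold or more). Without robust estimation 61 genes were called at 2-fold or more, against 38. Leaving out 1 library gave 41 to 277 calls, with 29 to 191 higher, 12 to 86 lower and 22 to 75 at 2-fold or more. With library totals alone the split was 66 higher and 63 lower. Leaving out the gene models that overlap the Hist2 genes, chosen after seeing the data, gave 124 calls. The distance between Alox5ko_TAC and WT_NS libraries was 0.385 with a prior count of 5 and 0.26 over genes with a mean log2 CPM of at least 3, against 0.428. The cause of these shifts was not tested. Of 322 list medians under an alternative, 24 moved by more than 1 SD. Of 112 genes named, 71 were called. Of these calls voom lost 16, library totals alone 7, the 6 libraries alone 15 and DESeq2 none. DESeq2 called 20 more, the 6 libraries alone 6, voom 5 and library totals alone 3. Runx1 ranged from -0.24 to 0.30 without 1 library and Runx1t1 from -0.49 to 0.06, so neither kept its direction.

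The replicate numbers did not pair the libraries of the groups compared. Same-numbered Alox5ko_TAC and WT_NS libraries correlated at -0.09, -0.12 and -0.08 in their deviations from the group means. Values elsewhere were mixed: 0.09, 0.1 and 0.06 for WT_TAC with WT_NS, and -0.11, 0.09 and 0.06 for Alox5ko_TAC with Alox5ko_NS. A pairing in other groups was not settled. With the replicate number as a block 96 genes were called, 65 higher and 31 lower, 30 of them at 2-fold or more, and 15 of the 71 named calls were lost. At this depth the median interval half-width of 0.71 below a log2 CPM of 1 limits what can be said of low genes.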
